A study of Solanum lycopersicum with 15 samples.

Results

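The genes of strigolactone biosynthesis were examined in hairy roots of the tomato cultivar M82. The group comprised 5 genes chosen by identifier for their place in the pathway: *D27* (Solyc09g065750), *CCD7* (Solyc01g090660), *CCD8* (Solyc08g066650), *MAX1* (Solyc08g062950) and *CYP722C* (Solyc02g084930). Values were read for 3 of the 5, *D27*, *CCD8* and *CYP722C*, in a table of 34688 genes. *CCD7* and *MAX1* were not analysed here. Of these 3, *CCD8* and *CYP722C* were among the 16189 genes that passed the filter on low counts, and *D27* was not.

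Hairy roots are roots that grow from plant tissue transformed with *Rhizobium rhizogenes*, and they carry genes of that bacterium. The 15 libraries came from 5 groups of 3. Wild-type roots were transformed without a binary vector. The *slexo1-hr6* and *slexo1-hr7* roots carried CRISPR/Cas9 edits in *SlEXO1*, a gene for a C2H2 zinc finger transcription factor, and the *slscz-hr5* and *slscz-hr12* roots carried edits in *SlSCZ*, a heat-shock transcription factor gene homologous to *Arabidopsis SCHIZORIZA*. All 12 mutant libraries therefore also held a vector with Cas9 and a kanamycin resistance gene, which the wild-type roots lacked, so the vector and its selection cannot be told apart from the edits in any comparison with wild type. Each mutant line was 1 transformation event, and each mutant genotype was represented by 2 lines and 6 libraries. A library pooled the terminal 3 cm of 6 to 7 root tips, grown on medium with 3% sucrose. The libraries were made by QuantSeq, which sequences only the 3′ end of a transcript, so counts carry no length term. Levels compared between genes, including shares of counts, depend on how well each 3′ end maps.

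Strigolactones are carotenoid-derived hormones made mainly in roots. They restrain shoot branching, and when exuded into the soil they are perceived by arbuscular mycorrhizal fungi and by seeds of parasitic plants. D27 isomerises β-carotene, and the dioxygenases CCD7 and CCD8 then cleave and rearrange it to carlactone. The cytochrome P450 MAX1 oxidises carlactone to carlactonoic acid, which CYP722C, a further cytochrome P450, converts to orobanchol in tomato.

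Library totals ranged from 2726538 to 8942819 counts (median 4800477). Wild-type libraries spanned 3348822 to 8942819, those of *slexo1* 3883717 to 6020912 and those of *slscz* 2726538 to 5873678. All 5 genes used here as markers of the endodermis were present in every library (6 to 511 counts). Neither edited gene was called different in its own mutant. *SlEXO1* held 10 to 21 counts in wild type and 18 to 27 in *slexo1*. *SlSCZ* held 15 to 53 in wild type and 18 to 31 in *slscz*. Edits of this kind need not change a transcript's level. A value of 3 counts corresponded to 0.358 to 1.15 CPM depending on the library. CPM are counts scaled to a common library total, here after TMM, a normalization for library composition.

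*D27*, the first enzyme of the pathway, lay at the limit of detection. It had 6 counts in all among 74104002, found in 4 of 15 libraries. The wild-type libraries numbered 2, 3 and 4 held 0, 2 and 0 counts. All 3 *slexo1-hr6* libraries held 0, and the *slexo1-hr7* libraries held 0, 0 and 1. The *slscz-hr5* libraries all held 0 as well, and the *slscz-hr12* libraries held 0, 1 and 2. No library reached 3 counts. Mean levels were 0.0796 CPM ± 0.138 (SD, n = 3) in wild type, 0.0273 CPM ± 0.067 (SD, n = 6) in *slexo1* and 0.115 CPM ± 0.184 (SD, n = 6) in *slscz*, and the libraries of the 3 genotypes overlapped. In two-sided exact permutation tests over libraries the p-value was 0.667 for *slexo1* against wild type and 0.833 for *slscz* against wild type. The smallest p these group sizes allow is 0.0238 for values without ties. For *slscz* against *slexo1* it was 0.455 (0.00216 without ties). Because most libraries were tied at 0, the tests of *slexo1* against wild type and of *slscz* against *slexo1* could not have reached 0.05. A difference in *D27* was not detectable from these counts, and no fold change is given. Whether its 3′ end maps to the cDNA used was not tested, so the low counts need not mean low transcription.

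*CCD8*, the dioxygenase that forms carlactone, was higher in *slscz* than in wild type and in *slexo1*, in both *slscz* lines. In wild type, the libraries numbered 2, 3 and 4 held 4, 2 and 2 counts (1.23, 0.239 and 0.462 CPM). The *slexo1-hr6* libraries held 0, 4 and 6 counts (0, 0.991 and 0.991 CPM), and the *slexo1-hr7* libraries 1, 1 and 6 counts (0.246, 0.16 and 0.984 CPM). In these 9 libraries *CCD8* never exceeded 6 counts. The *slscz-hr5* libraries held 7, 27 and 30 counts (2.69, 4.79 and 5.53 CPM), and the *slscz-hr12* libraries 12, 27 and 28 counts (3.26, 7.33 and 5.84 CPM). In CPM the 6 *slscz* libraries lay above all 9 others, with no overlap, and the library numbered 2 was the lowest of its line in both *slscz* lines.

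**Figure D1:**
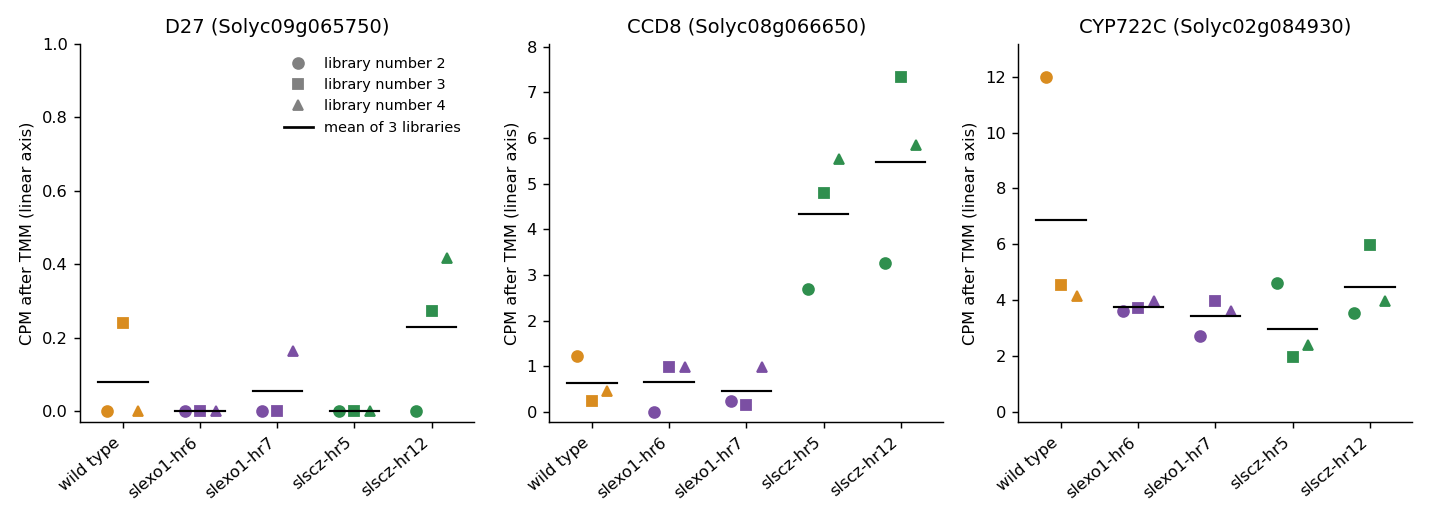
Levels of *D27*, *CCD8* and *CYP722C* in each of the 15 libraries, in CPM after TMM on linear axes that differ between panels; symbols give the library number in the table and bars the mean of 3 libraries. *CCD8* lay between 2.69 and 7.33 CPM in *slscz* and at no more than 1.23 CPM elsewhere, *CYP722C* reached 12.0 CPM in 1 wild-type library, and *D27* stayed below 3 counts in every library.

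The mean level of *CCD8* was 0.643 CPM ± 0.519 (SD, n = 3) in wild type, 0.562 CPM ± 0.474 (SD, n = 6) in *slexo1* and 4.91 CPM ± 1.72 (SD, n = 6) in *slscz*. Against wild type, *slscz* was higher by 3.28 on the log2 scale (SE 0.66, 95% interval 1.90 to 4.65), or 9.68-fold (3.72 to 25.2), with an adjusted p of 0.0017 in limma-voom. A gene was called when its adjusted p was at most 0.05 and its change at least 1.3-fold. In *slscz* against wild type, 15.2% of all tested genes were called, 6.84% were called higher, and 9.3% had all 6 *slscz* libraries above all 3 of wild type. The summed counts, 131 in *slscz* and 8 in wild type, gave a depth-scaled ratio of 10.1 (95% exact interval 4.99 to 23.9). This interval covers counting error only. *CCD8* passed the filter on low counts only through the *slscz* libraries, so its presence among the tested genes itself reflects their level. Without any filter the difference was 3.05 on the log2 scale (adjusted p 0.00307).

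Against *slexo1*, *slscz* was higher in *CCD8* by 3.44 on the log2 scale (SE 0.54, 95% interval 2.33 to 4.55), or 10.9-fold (5.02 to 23.5), with an adjusted p of 4.78e-05. In that comparison 23.8% of tested genes were called, 11% were called higher, and 7.6% had all 6 *slscz* libraries above all 6 of *slexo1*. The summed counts of 131 and 18 gave a ratio of 9.04 (95% exact interval 5.5 to 15.7). Here too *CCD8* was tested only because of its level in *slscz*. In limma-voom without any filter the difference was 3.41 (adjusted p 3.09e-05). Between *slexo1* and wild type no difference was called, at -0.16 (SE 0.80, 95% interval -1.84 to 1.51, adjusted p 0.926), where 8.84% of tested genes were called. That interval spans 0.28-fold to 2.84-fold, so at these counts a sizeable difference in either direction would not have been seen.

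All comparisons with wild type share the same 3 wild-type libraries. The difference was present in each *slscz* line taken alone. *CCD8* averaged 4.34 CPM ± 1.48 (SD, n = 3) in *slscz-hr5* and 5.48 CPM ± 2.06 (SD, n = 3) in *slscz-hr12*. Against wild type the log2 differences were 3.17 (SE 0.72, adjusted p 0.00652) and 3.38 (SE 0.72, adjusted p 0.00502), in fits that called 11.9% and 10.5% of tested genes. In limma-voom without any filter they were 2.95 (adjusted p 0.0129) and 3.16 (adjusted p 0.0089). Between the lines, *slscz-hr12* exceeded *slscz-hr5* by 0.21 (95% interval -0.67 to 1.09, adjusted p 0.997), where 0.105% of tested genes were called. The *slexo1* lines averaged 0.661 CPM ± 0.572 (hr6) and 0.463 CPM ± 0.453 (hr7) (SD, n = 3 each). Neither was called against wild type (adjusted p 0.935 and 0.951, with 8.94% and 4.8% of tested genes called), nor was either against the other (0.02, 95% interval -2.14 to 2.17, adjusted p 0.999, with 0.346% called). In order of mean level *slscz-hr12* came first, then *slscz-hr5*, *slexo1-hr6*, wild type and *slexo1-hr7*. The only gap between neighbours with no overlap of libraries lay between *slscz-hr5* and *slexo1-hr6*.

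**Figure D2:**
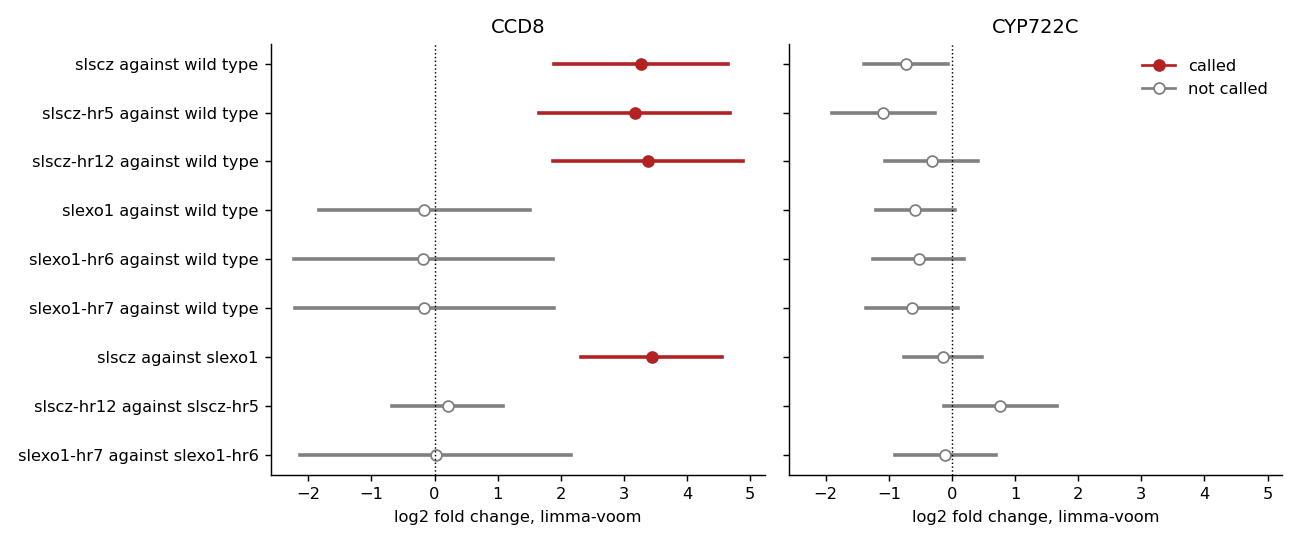
Log2 fold changes of *CCD8* (left) and *CYP722C* (right) in 9 comparisons of genotypes and lines, from limma-voom, with 95% intervals; filled symbols were called. *CCD8* was called in the 4 comparisons of *slscz* or its lines with wild type or *slexo1*, at 3.17 to 3.44, and *CYP722C* in none.

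The call against wild type depended on 1 library. Each of the 15 libraries was left out in turn, and *CCD8* stayed called in *slscz* against wild type in 14 of 15 fits. Without the wild-type library numbered 3, the deepest of the series with 8942819 counts and 2 counts of *CCD8*, the log2 difference was 2.53 and the adjusted p 0.0521. The line values without that library were 2.42 (adjusted p 0.0966) for *slscz-hr5* and 2.63 (adjusted p 0.0809) for *slscz-hr12*. Against *slexo1*, *CCD8* stayed called in 15 of 15 fits, at 2.95 to 3.71. That comparison, of 6 against 6 libraries, had a narrower interval than the one of 6 against 3 with wild type. The 6 libraries of a mutant came from only 2 lines, however, and the fit counted them as independent. The difference from *slexo1* stayed called with the line as a random effect.

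**Figure D3:**
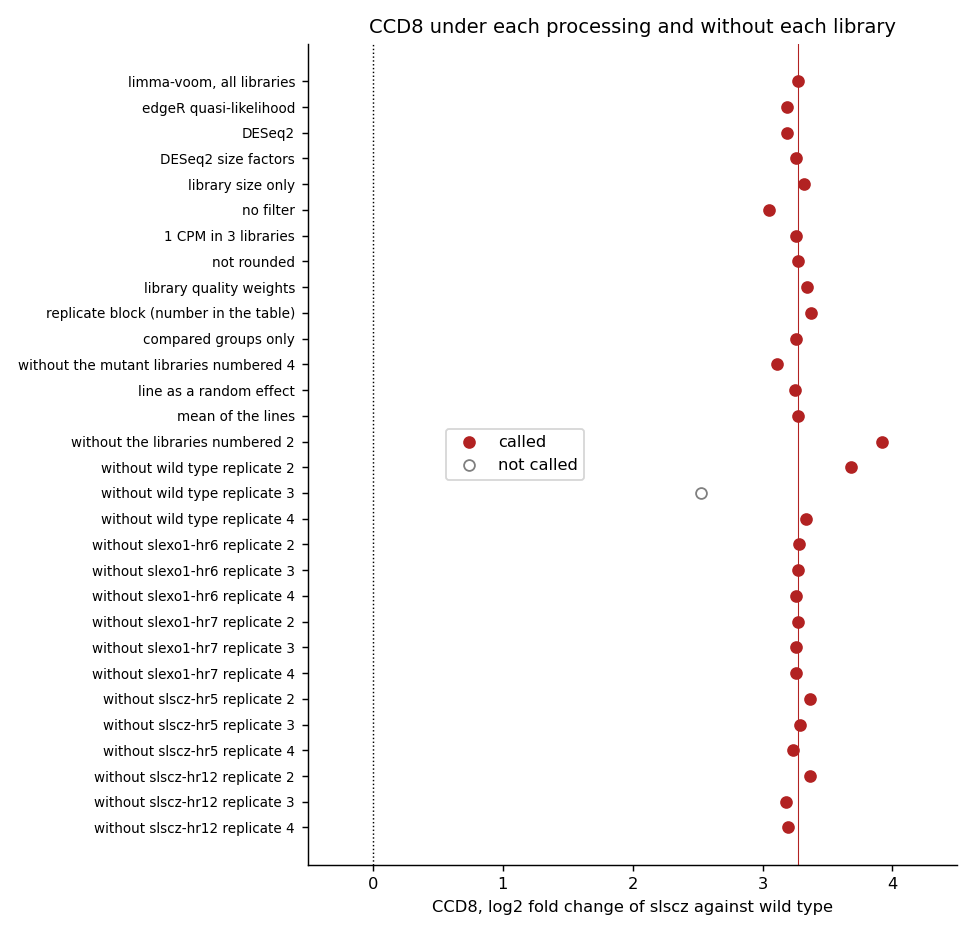
Log2 fold change of *CCD8* in *slscz* against wild type with the reported processing (top), under 14 alternative treatments of the counts, and with each of the 15 libraries left out; filled symbols were called. All values lay between 2.53 and 3.92, and the single open symbol is the fit without the wild-type library numbered 3.

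*CYP722C*, the enzyme that closes the orobanchol structure, was not called in any comparison. The wild-type libraries numbered 2, 3 and 4 held 39, 38 and 18 counts (12.0, 4.54 and 4.15 CPM). The *slexo1-hr6* libraries held 20, 15 and 24 counts (3.6, 3.71 and 3.96 CPM), and the *slexo1-hr7* libraries 11, 25 and 22 counts (2.71, 3.99 and 3.61 CPM). The *slscz-hr5* libraries held 12, 11 and 13 counts (4.61, 1.95 and 2.4 CPM), and the *slscz-hr12* libraries 13, 22 and 19 counts (3.53, 5.97 and 3.96 CPM). The wild-type library numbered 2 stood well above the other 14, and the remaining wild-type libraries lay within the range of *slscz*.

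Mean levels of *CYP722C* were 6.89 CPM ± 4.41 (SD, n = 3) in wild type, 3.6 CPM ± 0.468 (SD, n = 6) in *slexo1* and 3.74 CPM ± 1.47 (SD, n = 6) in *slscz*. In *slexo1* the log2 difference from wild type was -0.58 (SE 0.30, 95% interval -1.21 to 0.04, adjusted p 0.24). All 6 *slexo1* libraries lay below all 3 of wild type after TMM, as was the case for 8.99% of tested genes, whereas scaled by library size alone the groups overlapped (lowest wild-type library 4.01 CPM, highest *slexo1* library 4.15 CPM). In *slscz* the difference from wild type was -0.73 (SE 0.32, 95% interval -1.39 to -0.07, adjusted p 0.124), with overlapping libraries. *slscz* and *slexo1* differed by -0.14 (95% interval -0.77 to 0.48, adjusted p 0.76). Without the wild-type library numbered 2 the wild-type mean fell to 4.34 CPM (n = 2), below the mean of *slscz-hr12*, and the log2 differences from wild type were -0.28 for *slexo1*, -0.43 for *slscz* and -0.02 for *slscz-hr12*.

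By line, the lowest mean of *CYP722C* was that of *slscz-hr5*, 2.99 CPM ± 1.42 (SD, n = 3), and its log2 difference from wild type was -1.09 (SE 0.39, adjusted p 0.0728). This comparison fell on the other side of the threshold in 2 of 12 alternative treatments, DESeq2 (-1.27, adjusted p 0.0426) and limma-voom with library quality weights (-1.14, adjusted p 0.0291). The corresponding values were -0.32 (adjusted p 0.63) for *slscz-hr12*, -0.53 (adjusted p 0.371) for *slexo1-hr6* and -0.64 (adjusted p 0.327) for *slexo1-hr7*. The lines of a genotype were not called different, at 0.77 (adjusted p 0.99) for *slscz-hr12* against *slscz-hr5* and -0.11 (adjusted p 0.979) for *slexo1-hr7* against *slexo1-hr6*. With all libraries, the order of mean level was wild type, *slscz-hr12*, *slexo1-hr6*, *slexo1-hr7* and *slscz-hr5*, with overlap between all neighbours.

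The level of *CCD8* relative to *CYP722C* was read directly from the counts, which removes library depth and normalization. The 2 genes were paired after their values had been seen, so the share is given as a description without a test. *CCD8* made up 9.3%, 5.0% and 10% of the summed *CCD8* and *CYP722C* counts in the wild-type libraries. In *slexo1* the share ranged from 0% to 21.4% (median 14.2%), the 0 standing for 0 of 20 counts, with an upper 95% limit of 16.8%. In *slscz* it ranged from 36.8% to 71.1% (median 57.3%). The lowest *slscz* share, 7 of 19 counts in the *slscz-hr5* library numbered 2, had a 95% exact interval of 16.3% to 61.6%. It overlapped the intervals of all wild-type and all *slexo1* libraries. The interval of the *slscz-hr12* library numbered 2, 27.8% to 68.7%, overlapped that of the wild-type library numbered 4 (upper limit 31.7%). Each *slscz-hr12* interval also overlapped those of some *slexo1* libraries.

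**Figure D4:**
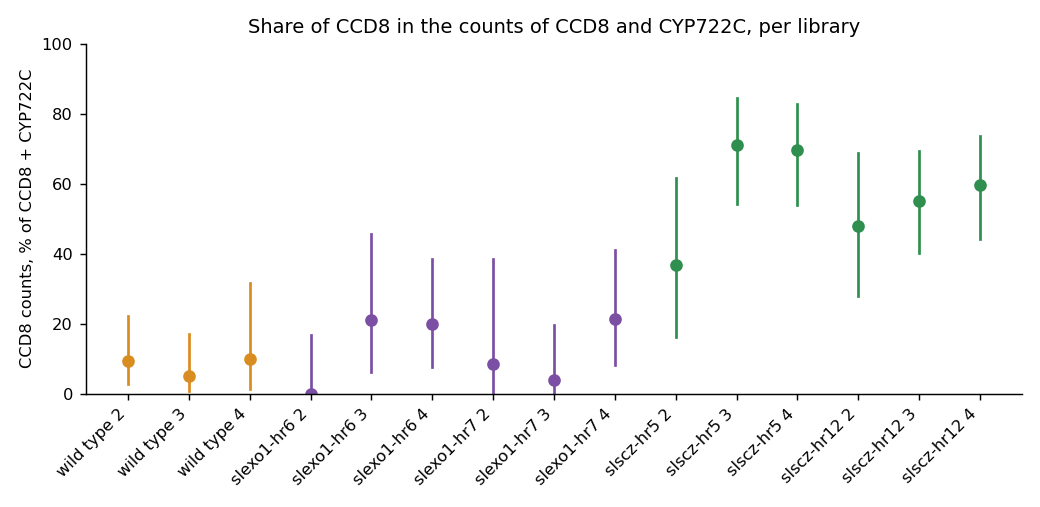
Share of *CCD8* in the summed counts of *CCD8* and *CYP722C* in each library, in percent, with Clopper-Pearson 95% intervals that cover counting error only. The 6 *slscz* libraries lay between 36.8% and 71.1%, above the 9 other libraries, whose highest share was 21.4%.

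Across the 15 libraries, log2 CPM of *CCD8* and of *CYP722C* had a Pearson r of -0.08. Within the 6 *slexo1* libraries r was 0.25 and within the 6 *slscz* libraries 0.06. These libraries share lines and depth, and the correlations are descriptions only. The tested gene whose profile over the 15 libraries was most like that of *CCD8* was Solyc10g081730 (r = 0.96), followed by Solyc08g081940 (r = 0.94) and Solyc02g077260 (r = 0.94). Solyc10g081730 averaged 48.8 CPM in wild type, 46.7 CPM in *slexo1* and 121 CPM in *slscz*, at a far higher count than *CCD8* (151 to 677 per library). Its genotype means stood in the same order as those of *CCD8*. It was picked for its likeness over these same libraries, so that order is no separate result. For *CYP722C* the most similar genes were Solyc05g053770 (r = 0.82), Solyc01g058720 (r = 0.80) and Solyc05g018490 (r = 0.79). None of these 6 remained among the 3 most similar when likeness was measured by Spearman's rho or by Pearson r within line groups.

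Other genes of the carotenoid and strigolactone pathways were followed through a list of 19 identifiers, drawn up from general knowledge and not paired with names in the tables used here, so they are given by identifier. Of the 19, 17 were read and 11 passed the filter. In *slscz* against wild type, 0 of the 11 were called higher and 2 lower, against 6.84% and 8.37% of all tested genes, and their median log2 difference was -0.25 (0.02 over all tested genes). In *slexo1* against wild type, 1 was called higher and 0 lower, against 3.89% and 4.95%, with a median of -0.01 (0.03 over all tested genes). In *slscz* against *slexo1*, 0 were called higher and 3 lower, against 11% and 12.8%, with a median of -0.39 (-0.0034 over all tested genes). The identifiers named next were singled out after their values had been seen.

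The clearest of these was Solyc10g081650. It held 141, 312 and 147 counts in wild type (43.3, 37.2 and 33.9 CPM). In *slscz-hr5* it held 48, 108 and 122 counts (18.4, 19.2 and 22.5 CPM), and in *slscz-hr12* 51, 107 and 106 counts (13.9, 29.0 and 22.1 CPM). All 6 *slscz* libraries lay below all 3 of wild type, as for 9.65% of tested genes. The log2 difference was -0.87 (SE 0.16, adjusted p 8.16e-04), and it stayed called in 15 of 15 fits with a library left out. In *slexo1* its libraries ranged from 37.8 to 54.9 CPM, overlapping wild type, and it was called lower in *slscz* than in *slexo1* (-1.08, SE 0.13, adjusted p 4.01e-06), with all 6 libraries below all 6, as for 7.55% of tested genes.

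Solyc03g031860 was also called lower in *slscz* than in wild type (-1.23, SE 0.39, adjusted p 0.0351), from 6, 55 and 26 counts in wild type, 9, 12 and 21 in *slscz-hr5* and 4, 5 and 7 in *slscz-hr12*. The groups overlapped. It was called in 9 of 15 fits with a library left out and was lost without the wild-type libraries numbered 3 (-0.85, adjusted p 0.311) or 4 (-1.14, adjusted p 0.102), without the *slscz-hr5* library numbered 3 (adjusted p 0.0579), or without any 1 of the 3 *slscz-hr12* libraries (adjusted p 0.0557 to 0.0731).

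Solyc01g097810 was the 1 listed gene called higher in *slexo1* than in wild type (0.44, SE 0.14, adjusted p 0.0442). Its wild-type libraries lay at 13.8, 17.4 and 18.0 CPM and its *slexo1* libraries at 19.6 to 25.3 CPM, with no overlap, as for 7.18% of tested genes. The call remained in only 5 of 15 fits with a library left out and was lost without any 1 of the 3 wild-type libraries (adjusted p 0.0916 to 0.18). It was called under 7 of 14 alternative treatments of the counts (adjusted p 0.0128 to 0.214). In *slscz* it lay below *slexo1* (-0.49, adjusted p 0.00247, 15 of 15 fits), with libraries at 11.5 to 17.5 CPM. Solyc10g079480 was called lower in *slscz* than in *slexo1* (-1.20, SE 0.44, adjusted p 0.0436) at 0 to 15 counts against 11 to 25, with overlapping libraries and in 6 of 15 fits. Under alternative treatments it was called in 9 of 14 (-1.38 to -0.77, adjusted p 0.0268 to 0.267), and both edgeR and DESeq2 were among those that lost it.

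**Figure D5:**
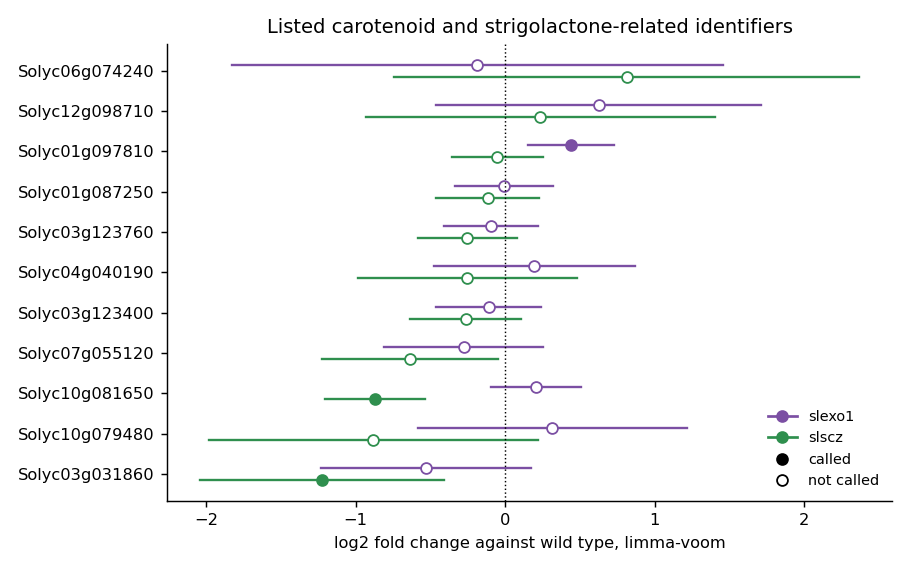
Log2 fold changes against wild type, with 95% intervals from limma-voom, of the 11 tested identifiers of the list, in *slexo1* (purple) and *slscz* (green); filled symbols were called. Solyc10g081650 and Solyc03g031860 were called lower in *slscz*, and Solyc01g097810 was called higher in *slexo1*.

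Markers of the endodermis were set beside these values, because the roots were pooled whole and fewer cells of a type cannot be told apart from less RNA per cell. The summed level of the 5 markers ranged from 106 to 128 CPM in wild type, 63.3 to 98.1 CPM in *slexo1* and 94.7 to 137 CPM in *slscz*. In the paper, reporters of *SlCASP1*, *SlCASP3* and *SlSGN3* were also expressed in cortex and exodermis, *SlCASP1* only in part. *SlCASP3* had the highest level of the 5 in every library, so the sum is not specific to the endodermis. Of the 5, *SlCASP1* (-0.98, adjusted p 0.00324) and *SlCASP3* (-0.74, adjusted p 0.012) were called lower in *slexo1* than in wild type, as were 4.95% of tested genes. Both encode homologues of *Arabidopsis* Casparian strip proteins. In the paper, the protein reporter of SlCASP1, but not that of SlCASP3, lay at the endodermal Casparian strip. *SlMYB36*, a regulator of Casparian strip formation, was called lower in *slscz* than in wild type (-0.71, adjusted p 0.0123), as were 8.37% of tested genes. In *slscz* against *slexo1*, *SlCASP1* (0.92, adjusted p 3.25e-04) and *SlCASP3* (0.95, adjusted p 5.92e-05) were called higher, as were 11% of tested genes. For both, all 6 *slscz* libraries lay above all 6 of *slexo1*, as for 7.6%. *SlMYB36* was called lower there (-0.56, adjusted p 0.0128), as were 12.8%. *SlCASP2* and *SlSGN3* were not called. No marker lay at 0 in any library. Their part in the values of *CCD8* and *CYP722C* was not tested.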

How the data were processed

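The deposited values are estimated counts, 1 table for the series, without normalization. After Trimmomatic, the authors ran kallisto (0.46.2 in the submitters' processing notes) against cDNA of ITAG 4.1. Between 4.01% and 5.38% of values per library were not whole, and they were rounded here. Reads shared between similar or overlapping transcripts are divided by estimation, and no strand option is stated, so antisense or overlapping transcripts cannot be told apart. The table numbers the wild-type columns 2 to 4 where the labels number them 1 to 3, so they were used as a group in the main fits. Only the library number as a block, and leaving out the libraries numbered 2, relied on the wild-type column numbers. For *slexo1-hr7* the titles count 1 to 3 and the descriptions 2 to 4, and the latter were used. The table held 0 other columns, and 0 of its 34688 identifiers matched the RefSeq gene table.

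Low counts were removed with filterByExpr (10 counts at least, 15 in total, grouped by genotype). Then limma-voom with TMM was run (edgeR 4.0.16, limma 3.58.1, R 4.3.3) over all 15 libraries in a model of 3 genotypes and a model of 5 line groups. P-values were adjusted by Benjamini-Hochberg over all 16189 tested genes, and genes were called at 0.05 and 1.3-fold. They measure the spread between root pools of few lines. Within groups, all 15 library pairs differed beyond sampling noise (chi-square per gene 3.08 to 10.2). *D27* was below the filter and was compared by exact permutation. Counting intervals are exact (95%) and ignore PCR duplication, since the reads carry no molecular identifiers.

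All 5 members were named by identifier, with the 3 most similar tested genes of each tested member. The members and lists were chosen with earlier results of these data known. Alternatives covered edgeR's quasi-likelihood test, DESeq2 1.42.0, other normalizations, filters and weights, no rounding, the compared groups alone, lines averaged or as a random effect, the library number as a block, and leaving out libraries. The code was tested on simulated data.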

Additional observations from a re-analysis of the deposited data

Results flagged for a closer look

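*CCD8* differed between the mutants when they were compared directly, by 3.44 on the log2 scale in *slscz* against *slexo1*. The listed genes Solyc10g081650 (-1.08), Solyc10g079480 (-1.20) and Solyc01g097810 (-0.49) also differed between the mutants, in the direct comparison by limma-voom, all lower in *slscz*.

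Among 6 groups of 6 libraries checked, a single library lay apart from the other 5 in 2. *CYP722C* was lowest in *slexo1* at 2.71 CPM (11 counts), in the *slexo1-hr7* library numbered 2. *D27* had its highest *slexo1* library at 0.164 CPM, which is 1 count where the other 5 held 0. For continuous values chance gives such a library in about 1 in 20 groups. For *D27* a lone count among libraries at 0 meets the criterion by construction.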

How the results depend on the processing

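Under 14 alternative treatments of the counts, *CCD8* in *slscz* kept its call against wild type (3.05 to 3.92 on the log2 scale) and against *slexo1* (3.02 to 3.87), and *CYP722C* was called in none of the 3 genotype comparisons. With each library left out in turn, *CCD8* in *slscz* against wild type ranged from 2.53 to 3.68 and was lost without the wild-type library numbered 3 (adjusted p 0.0521). *CYP722C* in *slscz* against *slexo1* ranged from -0.29 to 0.056.

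*CCD8* in *slexo1* against wild type had no stable sign: it was 0.092 in edgeR, 0.049 in DESeq2 and 0.90 without the libraries numbered 2, a setting chosen after seeing the data, and -0.91 to 0.32 with a library left out. For *slexo1-hr6* the same settings gave 0.28, 0.23, 1.51 and -0.92 to 1.08. For *slexo1-hr7* the last 2 gave 0.39 and -0.90 to 0.39. *slexo1-hr7* against *slexo1-hr6* turned to -0.39 in edgeR, -0.42 in DESeq2, -0.013 with library size only, -0.065 with no filter, -0.35 with quality weights, -0.10 without the mutant libraries numbered 4 and -1.12 without the libraries numbered 2, with -1.24 to 0.74 on leaving out a library. *CYP722C* turned to 0.12 in *slscz-hr12* against wild type without the libraries numbered 2, and ranged from -0.22 to 0.0054 between the *slexo1* lines. The cause was not tested.

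The labels do not say what a library number shares. The pairs compared next held mutant libraries only, whereas the replicate block also used the wild-type column numbers, which are not those of the labels. Of 18 same-numbered pairs across mutant lines, 9 had deviations correlated above 0.1 (median 0.11), against 2 of 36 pairs with other numbers (median -0.06). Deviations were taken from the mean of a line's 3 libraries, so they sum to 0 within a line. Positive values in same-numbered pairs therefore push the other pairs below 0, and the 36 pairs are no independent baseline. All 6 pairs numbered 4 were above 0.1 (0.12 to 0.42), but the other numbers were not throughout, so the libraries were not treated as paired. With the replicate block *CCD8* was 3.37 in *slscz* against wild type (adjusted p 8.42e-04), 3.20 against *slexo1*, 0.17 in *slexo1*, 0.27 in *slexo1-hr6*, 0.072 in *slexo1-hr7* and -0.20 between the *slexo1* lines. Solyc01g097810 in *slexo1* and Solyc10g079480 in *slscz* against *slexo1* lost their calls with the block (adjusted p 0.0685 and 0.101), among 7 and 5 of 14 alternatives that did so. The counts of called genes with the block were 2366 in *slscz* and 1393 in *slexo1*.

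Against wild type, 2463 genes were called in *slscz* and 1431 in *slexo1*. These counts became 1438 and 738 when the wild-type library numbered 3 was left out, and 1560 and 785 when those numbered 2 were. The low counts of *CCD8* in wild type and *slexo1* and of *D27* everywhere limit what these libraries can show.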
